A study of Mus musculus with 16 samples.

Results

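Cells hold on to each other and to the matrix around them through a small number of receptor families, and the integrins, cadherins, protocadherins, claudins, immunoglobulin-type adhesion receptors, junctional adhesion molecules and nectins among them are described here in mouse hepatic stellate cells (HSCs). Members were chosen by gene symbol alone, as every row of the 3 deposited FPKM tables whose name begins with Itga, Itgb, Pcdh, Cldn, Icam, Vcam, Pecam, Esam, Cadm or Pvrl, or with Cdh or Jam and a digit. FPKM counts the sequenced fragments of a gene for its length and for the size of the library, a level that can be compared between genes because it is per length. The choice gave 51 rows of 6258 named rows, for 46 distinct genes, of which 5 had a row in 2 tables. In all, 177 protein-coding genes of the mouse RefSeq annotation have a symbol that fits this choice. The tables list the genes of the authors' deposited comparisons, all below a q-value of 0.05 there, so a family member without a row was not shown to be the same in both groups.

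The first comparison was within quiescent HSCs (qHSCs) of 3 uninjured C57/Bl6 animals carrying WT1CreERT2 and the Ai14 reporter, whose mothers had been given tamoxifen at E10.5 (embryonic day) so that the mesothelium, which expresses WT1 at that stage, and its descendants turned red (RFP). RFP-positive (label-positive) and RFP-negative (label-negative) cells of the same animals made 3 samples each, and livers were taken after weaning. The other comparisons used activated HSCs (aHSCs) of 6 adult male C57/Bl6 animals after 8 weeks of carbon tetrachloride (CCl4) injections. WT1-deleted animals were PDGFRbCre;WT1_fl_GFP;Ai14 and controls were PDGFRbCre;WT1_+_GFP;Ai14. Both therefore carried the Cre, the Ai14 reporter, 1 WT1 allele replaced by GFP and the same injury, and differed in whether the other WT1 allele was floxed. The Cre is constitutive and driven by PDGFRβ, so deletion need not have been limited to the time of injury or to the liver. RFP-positive cells were sorted into GFP-high cells (3 deleted and 3 control samples) and GFP-intermediate cells, called GFP low in the sample labels (2 and 2), and 1 control sample of the latter held cells of 2 animals. Both fractions were in part from the same animals. All cells came from density centrifugation followed by flow cytometry.

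Integrins are pairs of 1 alpha and 1 beta chain, and the pairing sets the ligand, which is matrix for some pairs and receptors on other cells for others. Leukocytes carry their own integrins, which bind the ICAM and VCAM receptors that endothelium displays. Cadherins join like cells to each other through catenins, claudins and junctional adhesion molecules seal the gap between cells, and HSCs lie in the space between hepatocytes and the sinusoidal endothelium, where all of these contacts meet. The deposited tables give 1 FPKM per gene and group with the samples of a group already combined, so no spread between animals, no standard deviation and no depth is known, no test across animals was possible, and a ratio between groups has no replicate check. The ratios are therefore given as the log2 of the second group's FPKM over the first, with no pseudocount, and counts of members are set beside the same share over all named rows of their table. In qHSCs a pair of values is given with the label-negative cells first and the label-positive cells second, and in aHSCs with the control cells first and the WT1-deleted cells second.

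The cells were checked against genes typical of their labels before the adhesion genes were compared. Of 13 genes typical of quiescent stellate cells, 5 had a row in the qHSC table, 1 of them higher and 4 lower in label-positive cells, with a summed FPKM of 116 and 57.2. Dcn, a matrix proteoglycan, was at 109 and 49.0, whereas Pdgfrb, a receptor used as an HSC marker, was below 1 in both (0.905 and 0.370). Lrat, Des and Reln had no row. Only genes called different between the fractions have a row, so stellate genes without one may be expressed in both at an unknown level. The counts and sums of rows therefore do not give the identity of the cells. All 15 genes typical of liver sinusoidal endothelial cells had a row, with a summed FPKM of 5098 and 13953. All 17 T, NK and B lymphocyte genes had one too, with sums of 1656 and 62.5. None of these genes was at 0 in either group. In sorted cell pools such as these, fewer cells of a type and less RNA per cell cannot be told apart. WT1 itself had no row in the tables used here, so the deletion could not be checked from them.

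Label-positive and label-negative qHSCs differed in which adhesion families they expressed at the higher level. Of the 40 members in the qHSC table, 27 were higher and 13 lower in label-positive cells, against 50.4% and 49.6% of all named rows. At least 2-fold higher were 25 members (37.7% of all rows) and at least 2-fold lower were 13 (43.5% of all rows). The median log2 ratio of the 40 members was 1.21, and that over all rows was 0.64. Of the 5716 rows, 132 had a group at 0 and thus no finite ratio. These were left out of every median over all rows given here, but were counted in the shares. The summed FPKM of the members was 1722 and 3259. In several families every row lay in one direction. All claudins, all ICAM, VCAM and PECAM receptors and all junctional adhesion molecules with a row were higher in label-positive cells, and all leukocyte integrin chains with a row were lower.

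**Figure D1:**
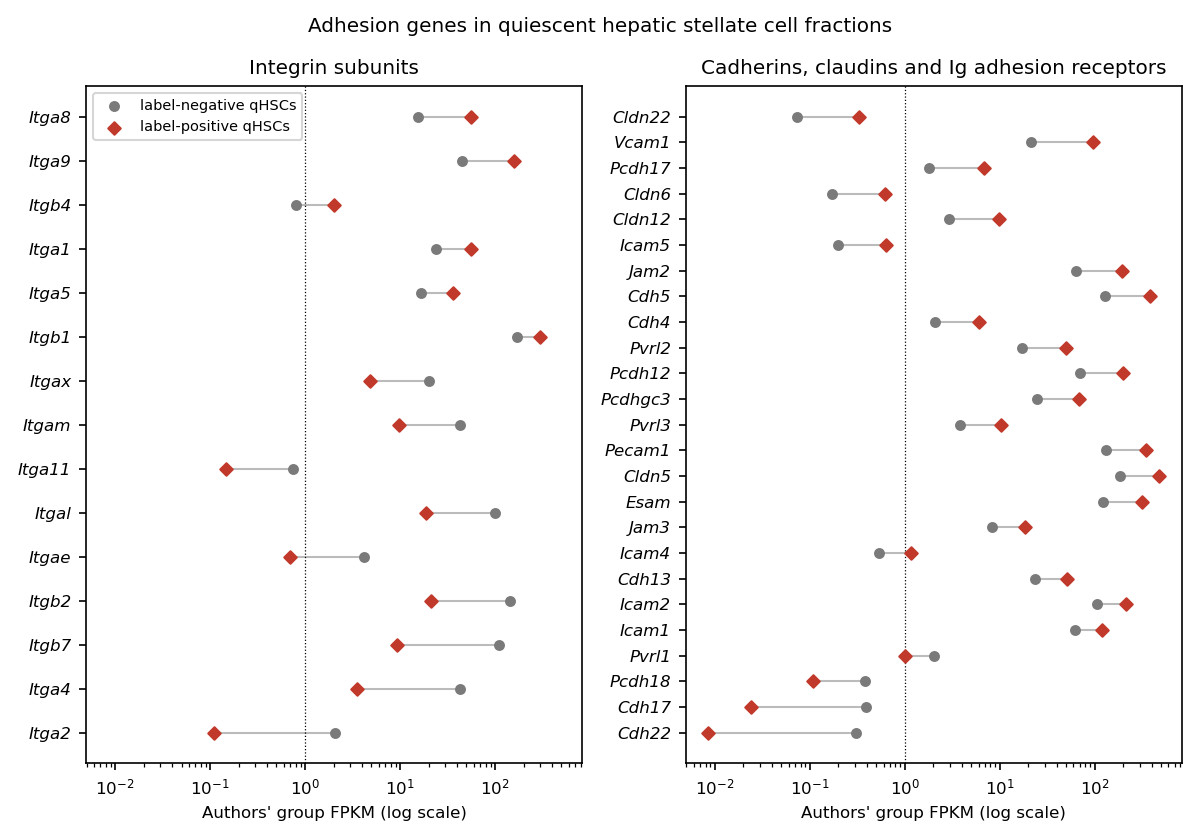
Authors' group FPKM (log scale) of the 40 adhesion genes in label-negative (grey circles) and label-positive (red diamonds) qHSCs, integrin chains on the left and the other families on the right, each sorted by log2 ratio, with a dotted line at an FPKM of 1. Red lies to the right of grey for 27 genes and to the left for 13, and 7 of the 13 are the leukocyte integrin chains; each point is 1 value per group and has no error.

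Among the members with a row, the 4 highest transcripts of label-positive qHSCs were those of endothelial cell contacts. Cldn5, the claudin of endothelial tight junctions, had an FPKM of 186 and 482, a log2 ratio of 1.37, and stood at rank 265 and rank 79 among the 5716 rows. Cdh5 (VE-cadherin), which holds endothelial cells together, was at 129 and 383 (log2 ratio 1.57). Pecam1, an immunoglobulin-type receptor of the same contacts, was at 131 and 348 (1.41). Esam, an endothelial adhesion molecule beside the tight junction, was at 124 and 319 (1.37).

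Other members known from endothelial contacts lay in a similar range. Icam2, a ligand for leukocyte integrins that resting endothelium carries, was at 106 and 217 (1.03). Pcdh12, a protocadherin of endothelium, was at 70.1 and 202 (1.53). The junctional adhesion molecule Jam2 was at 63.7 and 194 (1.61), while Jam3 was lower in level, at 8.28 and 18.7 (1.17). All 8 of these genes were at least 2-fold higher in label-positive cells, their log2 ratios spanned 1.03 to 1.61 with a median of 1.39, and their summed FPKM was 819 and 2163. This group of 8 was not set in advance, so its shared direction and narrow span describe the choice of genes. Icam1 (0.93) and Vcam1 (2.17), of the receptor families that endothelium displays, were not placed in it and lay outside the span.

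Relative to Cdh5 the levels of this group were close to each other in both fractions for some genes and not for others. Jam2 was at 0.492 of the Cdh5 FPKM and 0.506, and Pcdh12 was at 0.542 and 0.526. Icam2 departed most, from 0.821 to 0.565 of Cdh5. The ratio of Cldn5 to Cdh5 was 1.44 and 1.26. Pecam1 was at 1.01 and 0.907 of Cdh5, and Esam was at 0.957 and 0.832. The 15 sinusoidal endothelial markers, none of them an adhesion member, had log2 ratios of 1.28 to 1.86 with a median of 1.45, beside 1.39 for the 8 junction genes. The median of all rows higher in label-positive cells was 1.31, and that of the 7 mesothelial markers with a row was 1.43. Medians this close were therefore not particular to endothelial genes. The part of endothelial cells in the values of the junction genes was not tested.

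Leukocyte integrins were higher in label-negative qHSCs. Itgb2, the beta chain shared by the integrins of circulating leukocytes, was at 143 and 21.2, a log2 ratio of −2.75. Itgal, which with Itgb2 forms the LFA-1 integrin of lymphocytes, was at 99.0 and 18.8 (−2.40). Itgam, the alpha chain of Mac-1 on myeloid cells, was at 43.3 and 9.80 (−2.14). Itgax, typical of dendritic cells and some macrophages, was at 20.0 and 4.79 (−2.06).

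Chains used in lymphocyte homing lay in the same direction. Itgb7, which pairs with Itga4 or Itgae in cells that home to gut, was at 111 and 9.33 (−3.58). Itga4, which pairs with Itgb1 or Itgb7 and binds VCAM1, was at 43.3 and 3.53 (−3.62). Itgae, the alpha chain of intraepithelial T cells that binds E-cadherin, was at 4.22 and 0.694 (−2.60). All 7 chains with a row were lower by at least 2-fold, and their summed FPKM was 464 and 68.1. Itgad and Itgb2l had no row.

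Some chains of one receptor kept similar proportions although the level differed, and others did not. Of the FPKM of the 3 alpha chains that pair only with Itgb2, Itgal made up 61.0% and 56.3%, Itgam 26.7% and 29.4%, and Itgax 12.3% and 14.4%, while their sum was 162 and 33.4. Itga4 was at 0.389 of the Itgb7 FPKM and 0.378, whereas Itgae was at 0.0379 and 0.0744 of it. Itgb2 was at 0.880 of the summed FPKM of its 3 alpha chains and 0.636.

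Lymphocyte and granulocyte markers moved with these chains, whereas macrophage and monocyte markers lay in both directions. The 17 lymphocyte markers had log2 ratios of −5.92 to −3.63, all below those of the integrin chains, whose lowest was −3.62. Of 10 granulocyte markers 9 had a row, all lower in label-positive cells, with a median log2 ratio of −2.28 and sums of 2339 and 467. Of 13 macrophage and monocyte markers 11 had a row, 7 higher and 4 lower, with sums of 1862 and 1014. Clec4f and Marco, genes of resident Kupffer cells, were higher in label-positive cells (34.2 and 166, and 4.82 and 32.4), and Lyz2 and Ly6c2 were lower (1283 and 289, and 131 and 8.80). The part of these cells in the integrin values was not tested.

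**Figure D2:**
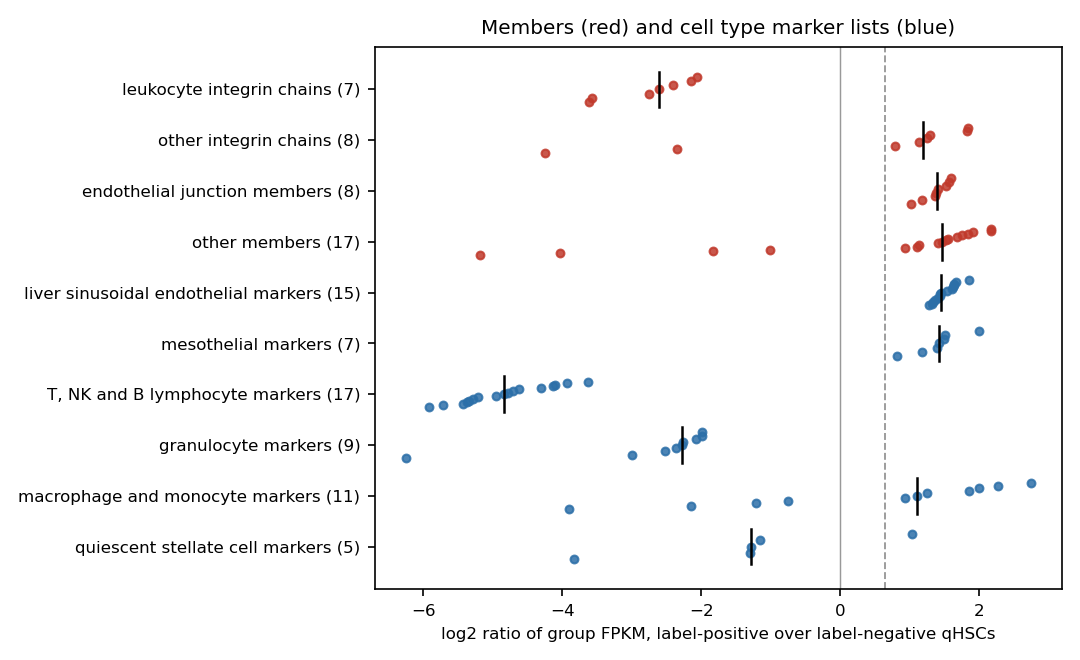
Log2 ratio of group FPKM, label-positive over label-negative qHSCs, 1 point per gene, for the adhesion genes in 4 groups (red) and for 6 cell type marker lists (blue), with the number of genes in brackets, a black bar at each median, a grey line at 0 and a dashed line at the median of all rows, 0.64. The leukocyte integrin chains lie among the granulocyte markers and above all lymphocyte markers on the negative side, and the endothelial junction genes span 1.03 to 1.61 beside sinusoidal endothelial markers at 1.28 to 1.86. The median of all rows higher in label-positive cells was 1.31.

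The integrin chains outside the leukocyte classes were mostly higher in label-positive qHSCs. Itgb1, the beta chain of most matrix receptors, had the highest FPKM of the integrin chains with a row, at 171 and 296. Its log2 ratio of 0.79 was the smallest in size of the 40 members. Itga9, which with Itgb1 binds tenascin and VCAM1, was at 45.2 and 160.2 (1.82). Itga1, the alpha chain of a collagen receptor that HSCs carry, was at 23.7 and 56.5 (1.25). Itga8, whose ligand is nephronectin and which is known from mesangial and stellate cells, was at 15.5 and 55.4 (1.84). Itga5, the fibronectin receptor chain, was at 16.6 and 36.3 (1.13).

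The other 3 chains of this kind had an FPKM of 2.08 or less. Itgb4, the hemidesmosome chain, was at 0.813 and 2.001 (1.30). Itga2, a collagen receptor chain of platelets and lymphocytes among others, was at 2.08 and 0.109 (−4.25), and Itga11, a collagen receptor chain of fibroblasts, was at 0.747 and 0.146 (−2.35). Thus among the 8 chains 6 were higher and 2 lower in label-positive cells, and the summed FPKM was 276 and 606. The alpha chains that bind laminin (Itga3, Itga6, Itga7) had no row, nor had Itgav, Itgb3, Itgb5, Itgb6 or Itgb8.

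Transcript shares of the alpha chains known to pair with Itgb1 differed between the fractions for some chains. The 7 alpha chains with a row that are known to pair with Itgb1 had a summed FPKM of 147 and 312, or 0.860 and 1.06 of the Itgb1 FPKM. Itga9 accounted for 30.8% of that sum and 51.3%. Itga4 accounted for 29.4% and 1.13%, whereas the share of Itga5 was 11.3% and 11.6% and that of Itga1 was 16.1% and 18.1%. Itga8 accounted for 10.54% and 17.7%. These are shares of transcript levels among rows of the table, since partner chains without a row could not be counted, and they do not give amounts of assembled receptor. Itga4 also pairs with Itgb7, and chains measured in a sorted pool need not lie in the same cells.

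**Figure D3:**
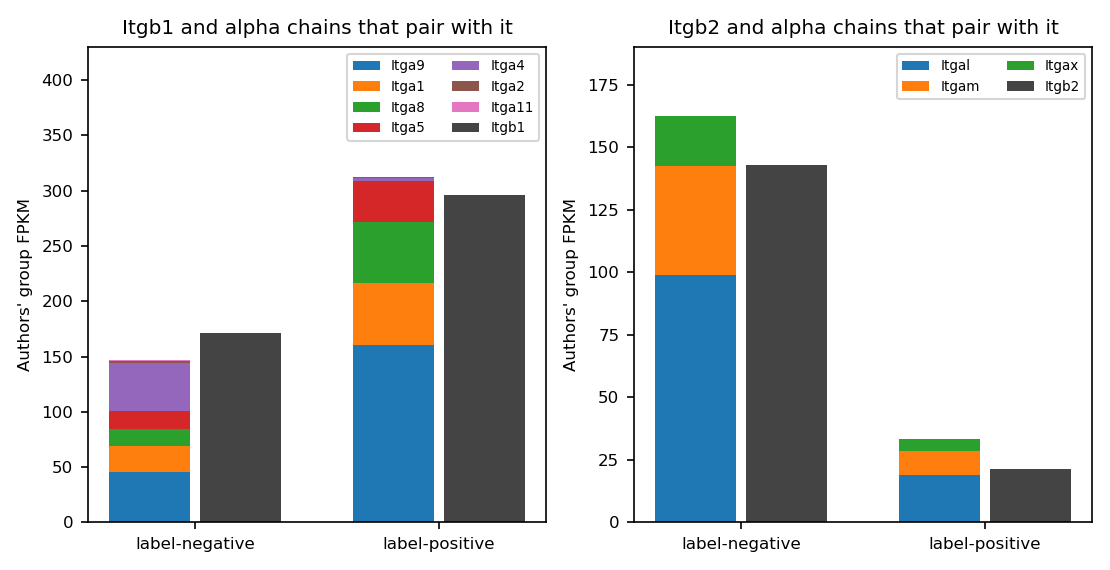
Stacked FPKM of alpha chains beside the FPKM of the beta chain they pair with, for Itgb1 (left) and Itgb2 (right) in label-negative and label-positive qHSCs; the panels have different vertical scales, both starting at 0, and bars have no error. The Itgb1 partners sum to 147 and 312 with Itga4 (purple) nearly absent on the right, and the Itgb2 partners sum to 162 and 33.4 with similar proportions.

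The ICAM and VCAM receptors, which leukocyte integrins bind, were higher where those integrins were lower. All 6 members of the ICAM, VCAM and PECAM group had a row, each at the higher level in label-positive cells, with a median log2 ratio of 1.28. The group includes Pecam1, which was described above with the endothelial contacts and is not counted here as a ligand of these integrins. Vcam1, the ligand of Itga4 and Itga9 integrins, was at 21.5 and 96.8, a log2 ratio of 2.17. Icam1, the ligand of the Itgal and Itgam integrins that inflammation induces on many cells, was at 62.3 and 119 (0.93). Icam4 and Icam5 had low levels, with 0.533 and 1.18 (1.14) for Icam4, an erythroid receptor, and 0.200 and 0.642 (1.68) for Icam5, a neuronal one.

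Set against their integrin counterparts, Icam1 was at 0.629 of the Itgal FPKM in label-negative and 6.32 times it in label-positive cells. Vcam1 was at 0.497 and 27.4 times the Itga4 FPKM. Icam2 was at 1.07 and 11.5 times the FPKM of Itgal. Transcripts of both sides of these contacts were thus present in both sorted fractions. The Icam1 and Vcam1 FPKM were below those of their integrin chain in label-negative and above them in label-positive cells, whereas that of Icam2 was above Itgal in both.

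Among cadherins other than Cdh5, Cdh13, a membrane-anchored cadherin without a cytoplasmic tail, was at 23.6 and 51.0 (log2 ratio 1.11), and Cdh4 (R-cadherin) was at 2.07 and 6.07 (1.55). Cdh17, of intestinal epithelium, was at 0.392 and 0.0240 (−4.03), and Cdh22 was at 0.311 and 0.00853 (−5.19), the most extreme ratio of any member but with FPKM below 1 in both groups. Rows were found for 5 of 23 cadherins, and the epithelial Cdh1 and the mesenchymal Cdh2 and Cdh11 had none. Protocadherins, many of them neuronal, had a row for 4 of 69 genes. Apart from Pcdh12, Pcdhgc3 was at 24.6 and 68.4 (1.47), Pcdh17 was at 1.81 and 6.82 (1.92) and Pcdh18 was at 0.382 and 0.108 (−1.82).

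Claudins with a row other than Cldn5 had low levels. Cldn12 was at 2.92 and 9.85 (1.76), Cldn6 was at 0.173 and 0.620 (1.84) and Cldn22 was at 0.0731 and 0.330 (2.17), and rows were found for 4 of 37 claudins. Of the nectins, which start contacts between cells and bind afadin, Pvrl2 was at 17.1 and 49.5 (1.53) and Pvrl3 was at 3.85 and 10.2 (1.41), whereas Pvrl1 was at 2.05 and 1.02 (−1.01). No Cadm gene had a row in qHSCs.

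Some members could not be separated from the genes around them. In the GENCODE vM21 annotation, in which all 46 members were found, exons of 6 members overlap exons of another protein-coding gene. All 995 exon bases of Cldn22 lie within exons of Wwc2 on the opposite strand, and Wwc2 was at 9.32 and 29.5 (log2 ratio 1.67), a far higher level than that of Cldn22 in the same direction. Exons of Itga4 share 8.04% of their bases with Cerkl on the opposite strand, and Cerkl was at 27.4 and 2.80 (−3.29). Whether the counting used strand is not stated, so reads from such opposite genes cannot be told apart. The overlaps of Itga1 (3.68%, same strand) and Itga7 (0.111%, opposite strand) are small. Itgam shares 68.7% of its exon bases with Gm49368, a gene model on the same strand. Pcdhgc3 shares 38.5% with most of the other gamma protocadherins, whose constant exons are common to all, so its value may hold reads of the whole cluster. Wwc2 and Cerkl were named after their values had been seen.

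Members that neighbour each other on a chromosome were compared as well. Itgam and Itgax are adjacent on chromosome 7 in the RefSeq order and had nearly equal log2 ratios of −2.14 and −2.06. Icam1, Icam4 and Icam5 follow each other on chromosome 9 and were all higher in label-positive cells, with FPKM that differed widely (119, 1.18 and 0.642). Icam2 and Pecam1 lie on chromosome 11 with 2 genes between them and were both higher (1.03 and 1.41). In contrast, Itga2 and Itga1 are adjacent on chromosome 13 and lay in opposite directions, at −4.25 and 1.25.

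The sequences before the transcription start are shown for 3 members that were higher and 3 that were lower in label-positive cells. On each side these are the members of highest FPKM that had an entry among the RefSeq promoters. Cdh5, Pecam1, Esam and Itgb2 had no entry. A link between these sequences and the direction of the members was not tested. The sequences are the 250 bases before the start, from RefSeq promoters of GRCm38.p6, written 5′ to 3′ along the gene. Capitals mark matches on either strand to an ETS core (AGGAAG) or a GC box (GGGCGG), and none of the 6 windows held the TATAAA or the kappaB motif that were also searched. The windows are chr16:18776597-18776846 on the plus strand for Cldn5, chr8:128685404-128685653 on the plus strand for Itgb1 and chr9:118711442-118711691 on the plus strand for Itga9. Those of the lower members are chr15:102231936-102232185 on the minus strand for Itgb7, chr2:79255176-79255425 on the plus strand for Itga4 and chr7:128062390-128062639 on the plus strand for Itgam.
Cldn5: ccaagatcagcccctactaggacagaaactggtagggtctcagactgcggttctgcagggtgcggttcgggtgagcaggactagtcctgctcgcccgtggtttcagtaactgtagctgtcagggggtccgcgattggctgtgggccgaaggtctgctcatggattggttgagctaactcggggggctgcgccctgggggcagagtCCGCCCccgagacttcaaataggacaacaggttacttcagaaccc
Itgb1: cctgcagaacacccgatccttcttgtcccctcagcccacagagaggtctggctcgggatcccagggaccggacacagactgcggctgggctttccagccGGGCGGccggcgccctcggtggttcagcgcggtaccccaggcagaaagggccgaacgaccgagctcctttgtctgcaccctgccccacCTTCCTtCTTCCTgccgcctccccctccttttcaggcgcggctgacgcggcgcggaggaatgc
Itga9: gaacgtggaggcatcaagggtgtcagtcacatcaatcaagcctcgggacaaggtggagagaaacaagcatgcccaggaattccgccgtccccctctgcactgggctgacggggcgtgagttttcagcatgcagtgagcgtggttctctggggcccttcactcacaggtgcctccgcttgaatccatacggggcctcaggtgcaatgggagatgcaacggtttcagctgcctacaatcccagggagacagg
Itgb7: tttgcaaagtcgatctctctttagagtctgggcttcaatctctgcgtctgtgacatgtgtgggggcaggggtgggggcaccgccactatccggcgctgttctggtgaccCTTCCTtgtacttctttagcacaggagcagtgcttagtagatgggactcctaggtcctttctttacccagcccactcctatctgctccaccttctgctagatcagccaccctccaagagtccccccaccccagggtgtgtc
Itga4: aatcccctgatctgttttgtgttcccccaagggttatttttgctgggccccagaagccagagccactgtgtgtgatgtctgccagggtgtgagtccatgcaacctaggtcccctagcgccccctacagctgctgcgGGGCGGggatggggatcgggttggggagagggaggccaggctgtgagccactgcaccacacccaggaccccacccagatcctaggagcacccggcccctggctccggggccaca
Itgam: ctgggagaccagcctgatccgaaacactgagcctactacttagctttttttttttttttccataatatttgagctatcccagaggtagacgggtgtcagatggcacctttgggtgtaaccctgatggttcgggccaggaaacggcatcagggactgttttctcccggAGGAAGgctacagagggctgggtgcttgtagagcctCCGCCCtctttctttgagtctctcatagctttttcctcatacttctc

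Cldn5 had 1 GC box, beginning 45 bases before the start, and Itga4 had 1, beginning 114 bases before it. Itgb1 had a GC box 151 bases and a pair of ETS cores 63 and 56 bases before the start. Itgam had an ETS core 83 bases and a GC box 47 bases before it, Itgb7 had an ETS core 141 bases before it, and Itga9 had no match. No 2 matches overlapped. Base composition ranged from 49.6% G or C for Itgam to 68% for Itgb1.

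Of the 46 members 25 had an entry in the promoter table. Only the first listed start of each member was counted. Among members higher in label-positive qHSCs 15 had an entry, of which 10 held a GC box and 2 an ETS core, and among the lower members 8 had one, of which 4 held a GC box and 4 an ETS core. Cldn12, a higher member with 3 listed starts, held no GC box at the first but held it at the others. The shares over all windows that follow count every listed start. Of all 32851 promoter windows of this length, 32.7% held the GC box, 29.5% the ETS core, 12.4% TATAAA and 1.21% the kappaB motif. None of these 23 members held TATAAA or the kappaB motif in its window. A match of letters is a description of the sequence and not evidence that a factor binds there.

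Transcripts of the proteins that link adhesion receptors to the cytoskeleton were higher in label-positive cells for some genes and lower for others. Of 24 listed integrin adaptors 17 had a row in qHSCs, 11 higher and 6 lower in label-positive cells, with a median log2 ratio of 1.23. For this and the lists of partners below, 50.4% of all named rows were higher and 49.6% lower, with a median of 0.64. Fermt2 (kindlin-2), the kindlin of adherent cells, was at 41.0 and 131, whereas Fermt3 (kindlin-3), its counterpart in blood cells, was at 42.6 and 7.96. Parva, a parvin of adherent cells, was at 13.1 and 45.5 and Parvg, the blood cell parvin, was at 30.1 and 4.30. The focal adhesion kinase Ptk2 was at 17.5 and 48.2 and its relative Ptk2b, abundant in leukocytes, was at 62.7 and 6.80. Apbb1ip, which brings talin to integrins in leukocytes, was at 36.2 and 4.88. Also lower were Zyx (zyxin), a focal adhesion protein of adherent cells, at 129 and 57.0, the highest FPKM of the 17 in label-negative cells, and the docking protein Nedd9, at 24.8 and 15.5.

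Of 16 catenins and other cadherin partners 12 had a row, 10 higher and 2 lower, with a median log2 ratio of 1.17. Ctnnb1 (beta-catenin) was at 121 and 345, Ctnnd1 (p120-catenin) at 42.5 and 135 and Ctnna1 (alpha-catenin) at 60.6 and 149. The log2 ratios of these 3 were 1.51, 1.67 and 1.30, beside 1.57 for Cdh5. The 2 that were lower were Pkp3, a desmosomal plakophilin, at 18.8 and 1.90, and Ctnnd2, at 0.464 and 0.134.

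Of 18 tight junction scaffolds and membrane partners 11 had a row, 9 higher and 2 lower, with a median of 1.24. Tjp1 (ZO-1), the scaffold that claudins and junctional adhesion molecules bind, was at 33.1 and 107, and F11r (JAM-A), a junctional adhesion molecule that the choice of symbols does not include, was at 44.8 and 120. Ocln (occludin) had no row.

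Of 21 selectins and other adhesion receptors 15 had a row, 4 higher and 11 lower, with a median log2 ratio of −2.89. The endothelial selectins Sele and Selp were higher in label-positive cells, at 3.64 and 21.3 and at 7.25 and 19.9, as was Podxl, a sialomucin of endothelium and podocytes, at 48.3 and 145. Selplg, the selectin ligand of leukocytes, was lower, at 229 and 28.5. The receptors known to bind nectins or nectin-like molecules on other cells, Cd226, Cd96 and Tigit, were lower, at 22.4 and 1.60, at 17.2 and 0.608 and at 9.98 and 0.574, while the nectins Pvrl2 and Pvrl3 were higher in label-positive cells.

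Other liver cell types also differed between the fractions. All 10 hepatocyte markers were higher in label-positive cells, with sums of 227 and 1397, and 7 of 10 mesothelial markers had a row, all higher, with sums of 17.6 and 52.0. Of 7 cholangiocyte markers 3 had a row, 2 higher and 1 lower, and of 9 platelet markers 2 had one, both lower. The part of these in the adhesion values was not tested.

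After CCl4 injury, deletion of WT1 from aHSCs was compared with controls within each GFP fraction. In GFP-high cells 4 of 123 named rows were members, 3 higher in WT1-deleted cells (77.2% of all named rows were at least 2-fold higher) and 1 lower (22.8%). Cadm1, an immunoglobulin-type receptor that joins like cells, was at 5.90 in controls and 21.0 in deleted cells, a log2 ratio of 1.83. Itgbl1, a secreted protein with integrin-like repeats that is not an integrin chain, was at 2.20 and 6.42 (1.55). Itga11, the collagen receptor chain of fibroblasts, was at 0.0833 and 0.899 (3.43). Itga7, the laminin receptor chain of muscle and vessel wall cells, was the member that was lower, at 70.1 and 26.8 (−1.39).

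In GFP-high cells the level of Itga11 was below an FPKM of 1 in both groups, so its ratio rests on very low values. None of the 79 listed adaptors, catenins, tight junction proteins and other adhesion receptors had a row in this comparison. Of 10 granulocyte markers 6 had a row, all lower in WT1-deleted cells, with sums of 520 and 149. Of 9 platelet markers Pf4 alone had a row, at 23.1 and 65.6. Cps1 was the 1 hepatocyte marker of 10 with a row, at 0.233 and 1.204. The sinusoidal endothelial, lymphocyte, macrophage, cholangiocyte, mesothelial and stellate cell markers had no row.

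In GFP-intermediate cells 7 of 419 named rows were members, 3 higher in WT1-deleted cells (37.2% of all named rows) and 4 lower (62.8%). In both deletion tables every named row differed by at least 2-fold, so passing that limit says nothing of the members. The lower ones were 3 chains of leukocyte integrins and Cdh5. Itgb2 was at 389 in controls and 137 in deleted cells (log2 ratio −1.501), Itgam was at 202 and 69.9 (−1.53) and Itgax was at 54.2 and 18.4 (−1.56). The 3 ratios lay within a narrow range, and Itgam was at 3.73 and 3.81 times the Itgax FPKM. Cdh5 was at 17.9 and 8.09 (−1.15).

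The higher members were of other kinds. Cldn4, an epithelial claudin, was at 1.14 and 8.62 (2.92). Cdh2 (N-cadherin), the cadherin of mesenchymal cells and of hepatocytes, was at 5.02 and 12.1 (1.27). Itgb3, the beta chain of the platelet fibrinogen receptor and of the vitronectin receptor, was at 3.88 and 9.17 (1.24), and neither of its alpha chains, Itga2b and Itgav, had a row.

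Among the listed partners in GFP-intermediate cells, Fermt3 was at 61.9 and 25.8 and Parvg at 31.6 and 13.6, both lower in WT1-deleted cells, and no other adaptor of the 24 had a row. Ncam1 was at 7.15 and 16.6 and Epcam, an epithelial receptor, at 1.30 and 5.70, both higher, and Cd48 was at 88.5 and 37.7. Catenins and tight junction proteins had no row.

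Marker lists moved with these members too. Of 13 macrophage and monocyte markers 6 rows were found, all lower in WT1-deleted cells, with sums of 2812 and 639, and 5 of 10 granulocyte markers were lower, with sums of 729 and 219. Of 9 platelet markers Pf4 alone had a row, at 209 and 27.5. Of 17 lymphocyte markers Gzma alone had a row, at 9.93 and 3.05. Of the 15 endothelial markers Stab1 alone had a row, at 120.4 and 30.8, beside the lower Cdh5. A list with 1 row does not show a change of that cell type. Of 7 cholangiocyte markers Epcam and Sox9 (1.67 and 4.69) had a row, both higher, beside the higher Cldn4. Cygb, a stellate cell gene, was at 39.5 and 96.5. Hepatocyte and mesothelial markers had no row. The part of these cell types in the member values was not tested, and the 2 samples of each group had been combined before deposit.

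**Figure D4:**
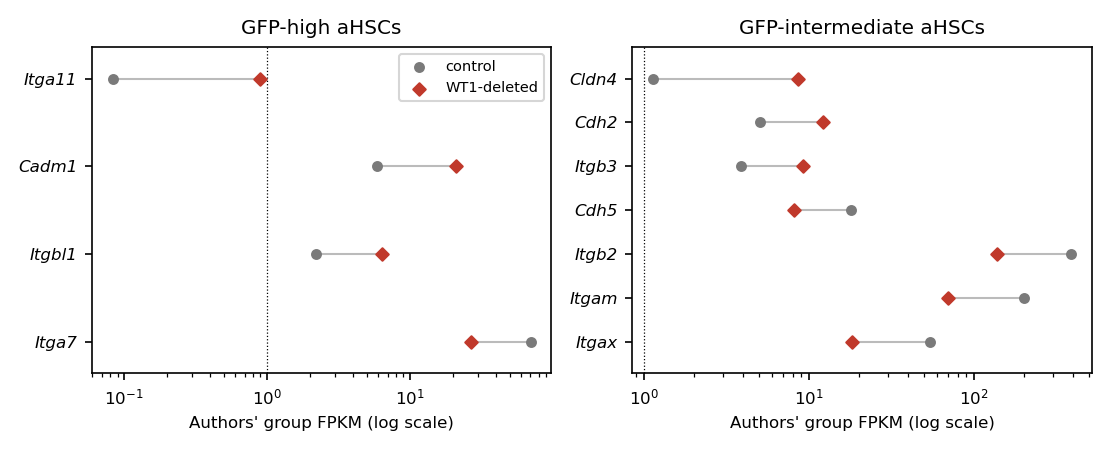
Authors' group FPKM (log scale) of the adhesion genes in control (grey circles) and WT1-deleted (red diamonds) aHSCs, GFP-high on the left and GFP-intermediate on the right, with a dotted line at an FPKM of 1; each point is 1 value per group and has no error. Of the 4 GFP-high genes 3 were higher after deletion, and of the 7 GFP-intermediate genes the 3 leukocyte integrin chains and Cdh5 were lower.

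No member had a row in both WT1 deletion comparisons, and 5 genes had a row in the qHSC table and in one of the deletion tables. The share of all named rows that recur between comparisons was not counted, so these counts are not read as particular to the members. Granulocyte markers such as S100a8 and S100a9 did have a row in both deletion comparisons. The tables were normalised separately, so their levels are set side by side and not compared. Itgb2 was at 143 and 21.2 in label-negative and label-positive qHSCs and at 389 and 137 in control and WT1-deleted GFP-intermediate cells. Itgam and Itgax were lower in the second group of both tables as well. Cdh5 was higher in label-positive qHSCs (1.57) and lower in WT1-deleted GFP-intermediate cells (−1.15), and Itga11 was lower in label-positive qHSCs (−2.35) and higher in WT1-deleted GFP-high cells (3.43).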

How the data were processed

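RNA was sequenced by the authors on an Illumina HiSeq from 16 samples, 6 of qHSCs and 10 of aHSCs. By the study's methods the reads were mapped with bowtie 2 and genes were called with Cuffdiff2 below an adjusted p of 0.05, and the submitters' processing notes list TopHat2 2.0.3, Cufflinks 2.0.1 and DESeq2, and the builds mm9 and mm10, with no role for each. The deposited values are FPKM, made by the authors as 1 value per group. In the deposited comparisons every named row had a q below 0.05. For the WT1 deletion the deposited tables hold more named rows than the genes the study counts as changed, and the sources used here do not say why. The companion tables hold the authors' own fold changes, p-values and q-values, of which none was used beyond that check of the rows. These tables were otherwise read only for gene identifiers and to check that the FPKM were equal to 4 decimals in all 5716, 123 and 419 named rows. The FPKM tables of the WT1 deletion hold in addition 108 and 149 loci without a gene name, which were left out. No column of sample values was left unused.

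Counts and values per sample were not used here, so the depth and its precision are unknown and no test, interval or standard deviation is given. Ratios of group FPKM were taken on the log2 scale with no pseudocount, with 2-fold as the limit for a count. The members and gene lists were chosen with earlier results of these data known. Every member row of the deletion tables was named. In the qHSC table the rule named, for each family, the 4 highest rows and the 3 largest ratios with an FPKM of at least 1, and receptor pairs, and the remaining members were added after their values were seen. Pathway and marker genes were named from their lists as examples. Sequences came from the RefSeq promoter table and exon overlaps from GENCODE vM21, and no coordinates were matched to the authors' build. The calculations were tested on simulated data. The sample labels give the qHSC animals as male and the study's methods as female. Python 3.11.15, pandas 2.3.3, numpy 2.4.6 and matplotlib 3.10.9 were used. Alternatives were pseudocounts of 0.1 and 1, a minimum FPKM of 1 for the higher group, fold limits of 1.5 and 4, and rows naming 1 gene.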

Additional observations from a re-analysis of the deposited data

How the results depend on the processing

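No member or family median changed direction under the pseudocounts of 0.1 and 1, a minimum FPKM of 1 for the higher group, or rows naming 1 gene only. With a limit of 4-fold in place of 2-fold, 2 qHSC members were higher and 11 lower in label-positive cells (25 and 13 at 2-fold). Of all rows 6.91% were higher and 26.1% lower at 4-fold (37.7% and 43.5% at 2-fold). The balance between higher and lower members thus turned, but lower rows outnumbered higher ones across the table too. Over all rows the median log2 ratio was −2.02 among lower and 1.31 among higher rows, so the turn is not particular to the members. At 4-fold, 1 member was higher and 0 lower after WT1 deletion in GFP-high cells (3 and 1 at 2-fold; 52% and 11.4% of all rows at 4-fold), and again 1 and 0 in GFP-intermediate cells (3 and 4 at 2-fold; 11.9% and 22% of all rows at 4-fold). With a pseudocount of 1, 8 qHSC members were at least 2-fold lower (13 without). The share of all rows under this pseudocount was not counted, so the drop is not read as particular to the members. With the same pseudocount the median log2 ratio of the lower members was −1.62 (−2.60 without) and that of the claudins 0.92 (1.80). That of the collagen receptor alpha chains was −0.61 (−2.35) and that of the higher GFP-high members 1.21 (1.83). Among collagen receptor chains with an FPKM of at least 1 the median was −1.499. Of single genes, 178 alternative values moved by less than 1.5-fold and 18 moved by more than 1.5-fold, all of genes at low FPKM under a pseudocount, for example Cdh22 (−0.38 with a pseudocount of 1), Cdh17 (−0.44), Itga2 (−1.47), Cldn22 (0.31) and Itga11 in GFP-high cells (0.81). No paired analysis was possible because the deposited values combine the samples of each group, and leaving out each replicate was not run for the same reason. All counts are limited to rows of the deposited tables.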
